A study of Homo sapiens with 12 samples.

Results

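Lamina-associated domains (LADs), the stretches of chromosome that lie against the lamina under the nuclear envelope, were called in 10 kb windows in naive and in primed H9 cells. Described here are the single-window primed gaps inside naive LADs. Such a gap is a 10 kb window of chromosomes 1 to 22 that lies outside the primed list while both neighbouring windows lie inside it, and that lies inside a naive LAD. There were 1610 such gaps among the 287391 windows of these chromosomes, with 136400 windows inside naive and 124212 inside primed LADs. The gaps were thus chosen by the LAD calls of both lists, so the calls in the window and the primed calls beside it describe the gaps and test nothing.

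H9 is an established human embryonic stem cell line. The series compared H9 cells kept in RSeT (naive) with H9 cells kept in mTeSR (primed), both without treatment. In the assay, pA-DamID, an antibody against lamin B1 (LMNB1) brings a fusion of protein A and Dam methylase to the lamina, and the adenines of nearby GATC sites are methylated and read out by sequencing. The labels give 12 libraries, 3 LMNB1-dam and 3 Dam-only in each state, and do not say whether the 3 came from separate cultures. The deposited data hold 1 interval list per state without scores or replicates. No difference between the states could therefore be set against replicate error, and the depth behind a window is unknown. Low mappability or a lack of GATC sites in a window cannot be told apart from true distance to the lamina.

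LADs are mostly gene-poor, late-replicating and rich in repressive histone marks, and genes inside them are mostly silent. Genes transcribed inside a LAD can be locally detached from the lamina, and transcription units, regulatory elements and LAD borders are known places of lost lamina contact. Human pluripotent cells can be held in a primed state, which resembles the epiblast after implantation, or in a naive state, which resembles the epiblast before it.

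A few of the gaps hold the start of a protein-coding gene, and their promoters are shown because there the primed call breaks at a gene start. Printed are the RefSeq promoters (GRCh38.p14, 250 bases before to 50 after the start, 5′ to 3′ on the gene's strand) of the first 5 genes when gaps with a start are ordered by the shorter of the primed LADs on either side. Capitals mark GATC, the only sequence that Dam can methylate. The LRIG3 promoter is chr12:58920455-58920754 (minus strand), that of PLK2 chr5:58460037-58460336 (minus), that of PRCP chr11:82901595-82901894 (minus), that of LOC124902602 chr11:82902006-82902305 (minus) and that of DDIAS chr11:82901486-82901785 (plus).
LRIG3: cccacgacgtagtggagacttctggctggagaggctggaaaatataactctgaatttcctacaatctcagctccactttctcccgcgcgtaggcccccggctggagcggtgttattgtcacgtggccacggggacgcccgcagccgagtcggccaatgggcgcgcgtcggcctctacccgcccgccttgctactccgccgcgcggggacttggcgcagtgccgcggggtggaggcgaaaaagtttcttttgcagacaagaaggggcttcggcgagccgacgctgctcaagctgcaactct
PLK2: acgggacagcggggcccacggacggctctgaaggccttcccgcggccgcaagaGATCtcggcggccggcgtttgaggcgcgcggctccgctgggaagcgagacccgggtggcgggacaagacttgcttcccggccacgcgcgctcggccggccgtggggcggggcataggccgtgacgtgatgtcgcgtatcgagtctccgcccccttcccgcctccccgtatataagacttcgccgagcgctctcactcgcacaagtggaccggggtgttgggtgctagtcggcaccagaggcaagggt
PRCP: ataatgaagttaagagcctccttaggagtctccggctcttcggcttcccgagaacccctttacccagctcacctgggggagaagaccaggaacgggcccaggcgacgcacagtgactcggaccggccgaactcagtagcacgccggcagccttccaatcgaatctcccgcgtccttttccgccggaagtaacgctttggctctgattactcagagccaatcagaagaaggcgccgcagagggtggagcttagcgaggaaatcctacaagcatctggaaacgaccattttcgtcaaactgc
LOC124902602: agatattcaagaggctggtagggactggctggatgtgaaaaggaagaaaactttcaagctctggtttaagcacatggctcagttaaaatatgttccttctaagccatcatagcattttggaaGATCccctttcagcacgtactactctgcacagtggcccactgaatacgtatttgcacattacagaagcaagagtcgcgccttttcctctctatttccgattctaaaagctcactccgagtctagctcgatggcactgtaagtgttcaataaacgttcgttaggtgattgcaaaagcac
DDIAS: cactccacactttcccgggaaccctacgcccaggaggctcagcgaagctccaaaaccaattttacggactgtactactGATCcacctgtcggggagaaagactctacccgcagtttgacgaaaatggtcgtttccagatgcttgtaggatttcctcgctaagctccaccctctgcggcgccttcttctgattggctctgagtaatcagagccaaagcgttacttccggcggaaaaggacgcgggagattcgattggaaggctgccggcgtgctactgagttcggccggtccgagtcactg
LRIG3 and PRCP have no GATC in this stretch, and PLK2, LOC124902602 and DDIAS have 1 each. The PRCP and DDIAS promoters share 191 bases on opposite strands, with the starts 92 bases apart. LRIG3 holds 31 CpG, PLK2 40, PRCP and DDIAS 22 each, and LOC124902602 only 9.

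Primed gaps were counted by width and by their place in naive LADs, and a wider gap meets the condition of lying wholly inside less easily. Of all 2401 single-window primed gaps, 1610 (67.1%, exact binomial 95% interval 65.1% to 68.9%) were inside a naive LAD and 791 were outside. Just beyond the limit of the rule, 426 of 822 gaps of 2 windows (51.8%) lay wholly inside a naive LAD. For 3 windows this was 155 of 408 (38.0%), for 4 windows 73 of 245 (29.8%), for 5 windows 45 of 174 (25.9%) and for over 10 windows 23 of 806 (2.85%). The share wholly outside naive LADs was also highest at 1 window, 32.9%, and lowest over 10, 18.6%, without a steady fall. In between it was 28.6% at 2 windows, 27.0% at 3, 26.9% at 4, 28.7% at 5 and 23.8% at 6 to 10. The binomial intervals here and below take windows as independent and cover counting alone. Gaps that share a gene or a LAD are not independent, so the intervals are likely too narrow.

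To read how often a gap occurs, the 113595 naive LAD windows with both neighbours in primed LADs were taken as candidate windows. Of these, 1.42% were gaps. The other 111985, inside both lists, are called comparison windows below. Among the 4901 windows with the same primed neighbours but outside naive LADs, 16.1% were also outside the primed list, a share 11.4 times as high. In the mirror case, 1.92% of the 113635 primed LAD windows with both neighbours in naive LADs were single-window naive gaps (2180 windows). Of all naive LAD windows, 13.7% lay outside primed LADs, and the gaps were 1.18% of them, so most naive-only DNA is not in such gaps.

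The rule admits every break of 1 window, and most of the gaps were not slits in long primed domains. The shorter of the primed LADs beside a gap had a median of 20 kb (quartiles 10 and 50 kb) and the longer a median of 70 kb (30 to 310 kb). At 695 gaps (43.2%) the shorter side was a single 10 kb window, and at 503 (31.2%) it was 20 to 40 kb. Only 63 gaps (3.91%) had at least 500 kb of primed LAD on each side. The deepest of these, on chromosome 13 (68350001 to 68360000), separates primed LADs of 4.52 and 10.23 Mb and lies 410 kb from the edge of a naive LAD of 1060 kb, with no protein-coding gene in it. The next 5, picked after their values were seen, lie on chromosomes 8, 10, 3, 4 and 2. Of these 5, those of chromosomes 8 and 4 cross CSMD3 and FSTL5, and the other 3 cross no protein-coding gene.

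Within 20 to 100 kb of a gap, both lists were less filled than around comparison windows. The median share of these surrounding windows in primed LADs was 72.2% (quartiles 50% and 88.9%) around gaps and 100% around comparison windows. In naive LADs it was 94.4% (77.8% to 100%) around gaps and 100% (94.4% to 100%) around comparison windows. All of the surrounding windows were primed at 247 gaps (15.3%) and naive at 577 (35.8%). For comparison windows these shares were 84.1% and 72.9%. Between 110 and 300 kb away, 63.9% of the windows around gaps lay in primed and 79.2% in naive LADs, so the naive list stayed the fuller of the pair well beyond the window that the rule used.

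**Figure D1:**
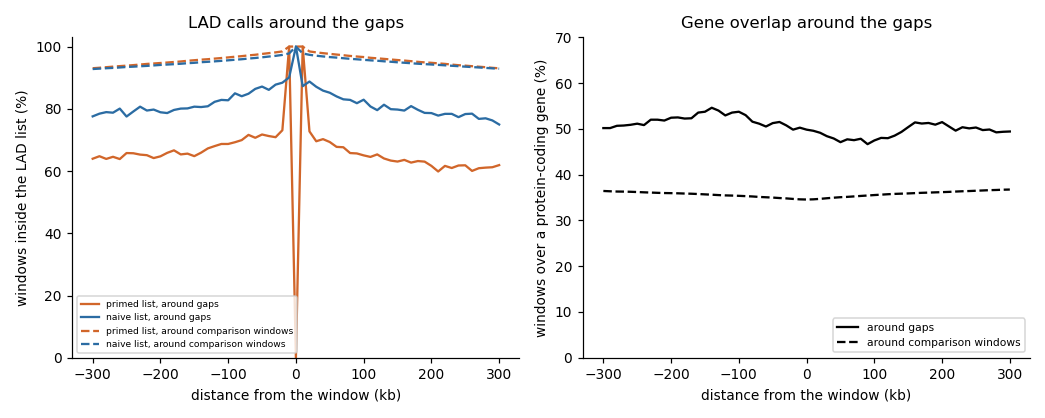
Share of 10 kb windows inside each LAD list (left, %) and over a protein-coding gene (right, %) by distance in kb from the 1610 gaps (solid) and the 111985 comparison windows (dashed). The primed and naive values at 0 and the primed values at 10 kb either side are fixed by the rule. Gene overlap is near 50% around gaps at all distances shown and near 35% around comparison windows, with no step at the gap itself.

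If the gaps were closed, the 5268 primed LADs of chromosomes 1 to 22 would become 3658. Their mean length would go from 236 to 344 kb, against 161 kb for the 8474 naive LADs. Primed LADs of 1 Mb or longer would number 341 in place of 336, and would hold 81.1% in place of 73.9% of the primed LAD bases. In the naive list, LADs of that length held 49.3%. The longest primed LAD would extend from 10.23 to 14.76 Mb, through the chromosome 13 gap above.

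The gaps were unevenly placed within naive LADs, with the highest rate at the edges. Of the gaps, 312 (19.4%, 17.5% to 21.4%) were the first or last window of their naive LAD, against 4.05% of comparison windows. This share depends on how the naive list is cut, as it was 1.62% with naive LADs less than 50 kb apart joined and 10.05% without naive LADs under 50 kb. The gap rate was 6.44 per 100 candidate windows (5.76 to 7.16) in the edge window, 3.93 in the second window and 3.39 in the third. It was 2.05 at 6 to 10 windows, 0.686 at 21 to 50 windows and 0.312 (0.250 to 0.384) over 50 windows in, 20.6 times below the edge. The median distance to the nearer edge, with the edge window at 0, was 50 kb (quartiles 10 and 140 kb) for gaps and 230 kb (80 to 500 kb) for comparison windows. The length of the naive LAD moved with this distance and had a median of 310 kb for gaps and 1190 kb for comparison windows. Taken as a share of LAD length, the median distances were close, at 23.3% (median's interval 21.6% to 25%) and 25.5% (25.4% to 25.7%).

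Short naive LADs had more gaps per candidate window than long ones. The rate was 11.4 per 100 in naive LADs of 1 window, 9.54 at 2 to 4 windows, 5.50 at 5 to 9, 2.94 at 10 to 49, 1.25 at 50 to 99 and 0.532 (0.478 to 0.591) at 100 windows or more. The fall from the edge inward was present in both length classes that were examined. In naive LADs of 2 to 49 windows the rate was 6.97 (6.13 to 7.88) in the edge window and 1.97 at 11 to 20 windows. For those of 50 windows or more it was 2.51 (1.65 to 3.66) in the edge window, 0.885 at 11 to 20 windows and 0.508 (0.454 to 0.568) beyond 20. Long naive LADs still contributed many gaps through their size, as those of 1 Mb or longer held 346 gaps (21.5%).

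**Figure D2:**
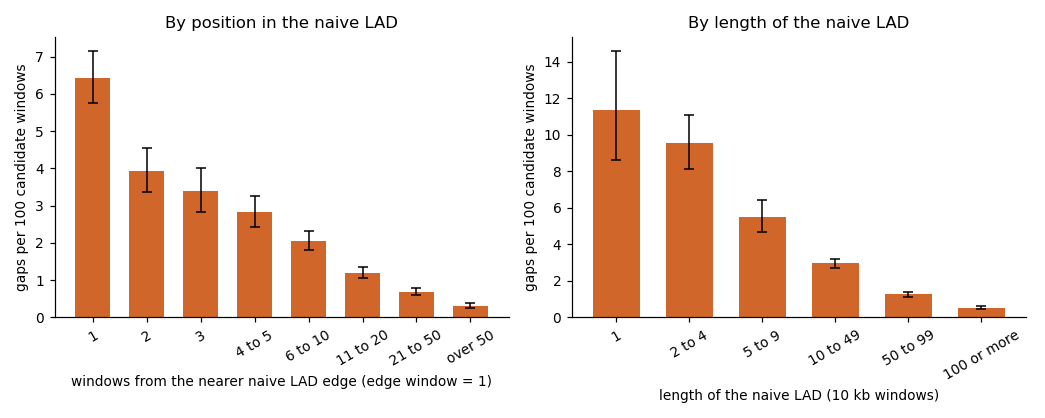
Gaps per 100 candidate windows by distance from the nearer naive LAD edge (left) and by naive LAD length (right), with exact binomial 95% intervals as error bars. The rate goes from 6.44 in the edge window to 0.312 over 50 windows in, and from 11.4 in single-window naive LADs to 0.532 in those of 100 windows or more.

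The naive calls of the windows next to a gap, which the rule did not use, show how many gaps are not an edge window of the naive LAD. At 1298 gaps (80.6%) both neighbours were naive, at 259 (16.1%) 1 neighbour and at 53 (3.29%) neither. For comparison windows these shares were 96.0%, 3.68% and 0.369%. The 53 windows are exact mirror images, with the middle window in the naive list alone and both neighbours in the primed list alone. Of the 259 gaps with 1 neighbour outside the naive list, that naive break was a single window at 176 (68.0%), 2 to 5 windows at 69 and wider at 14. At those 176 sites each list thus has a single-window break, shifted by 10 kb from that of the other.

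Gaps were spread over 920 of the 8474 naive LADs (10.9%), and 134 of the 383 naive LADs of 1 Mb or longer (35.0%) had at least 1. A single gap was found in 615 naive LADs, 2 in 153, 3 in 56, 4 to 9 in 90 and 10 or more in 6. The nearest other gap was at a median of 70 kb (quartiles 30 and 220 kb), against 120 kb (50 to 340 kb) between single-window naive gaps. A single primed window separated 323 gaps (20.1%) from the next, 695 (43.2%) had another gap within 50 kb and 155 (9.63%) were over 1 Mb from any other. Linking gaps at most 50 kb apart gave 915 gaps alone, 214 pairs, 48 triplets and 28 groups of 4 or more with 123 gaps. The largest group, on chromosome 20 (16980001 to 17220000), held 8 gaps in 240 kb and no protein-coding gene. In such places the primed list alternates between called and uncalled windows, and a gap there is one of many breaks.

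The 3 naive LADs with most gaps, the third the longest of those with 11, differed in how the gaps lay. On chromosome 1 (183650001 to 187590000, 3.94 Mb) 12 gaps were spread at a median spacing of 110 kb, and 8 of them crossed protein-coding genes. These were RGL1, C1orf21, RNF2, TRMT1L, IVNS1ABP and TPR, of which RNF2 encodes the catalytic ubiquitin ligase of Polycomb complex PRC1 and TPR a nuclear pore basket protein. On chromosome 9 (19480001 to 20670000, 1.19 Mb) 12 gaps at a median spacing of 80 kb crossed SLC24A2, a sodium, potassium and calcium exchanger gene, and MLLT3, a gene of transcription elongation complexes. There the primed list covered 67.2% of the naive LAD in 20 pieces, the longest of 170 kb. On chromosome 5 (164620001 to 168050000, 3.43 Mb) all 11 gaps lay in TENM2, a teneurin cell adhesion gene, at a median spacing of 20 kb. The primed list covered 93.6% of that naive LAD in 15 pieces, the longest of 2970 kb.

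**Figure D3:**
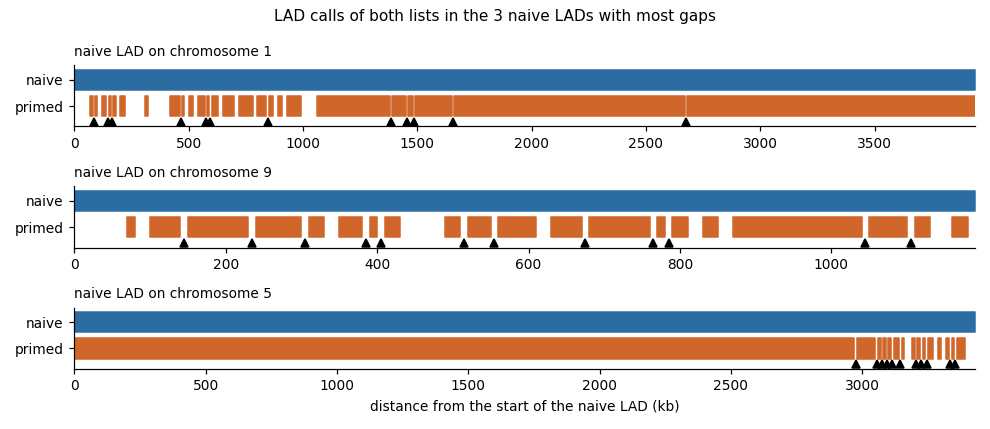
Naive (upper bar) and primed (lower bars) LAD calls along the 3 naive LADs with most single-window primed gaps, by distance in kb from the naive LAD's start, with triangles at the gaps. The gaps are spread along the LADs of chromosomes 1 and 9 and gathered at the far end of the chromosome 5 LAD, beyond its primed piece of 2970 kb.

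Gap rates also differed between chromosomes. No gap could occur on chromosomes 19 and 22, which had no candidate window. Chromosome 4, with the most candidate windows (12972), had 87 gaps and the lowest rate, 0.671 per 100 (0.538 to 0.827). Chromosome 21 had the highest, 46 gaps in 1006 candidate windows (4.57, 3.37 to 6.05), followed by chromosome 20 (44 gaps, 4.08) and chromosome 15 (60 gaps, 3.62). Neighbours in this order overlapped in their intervals. Chromosome 1 had the most gaps, 144, and chromosome 17 the fewest among chromosomes that had any, 9 at a rate of 1.12. Single-window naive gaps were more numerous than primed gaps on chromosome 4 (225) and chromosome 21 (91) and less numerous on chromosome 20 (17).

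**Figure D4:**
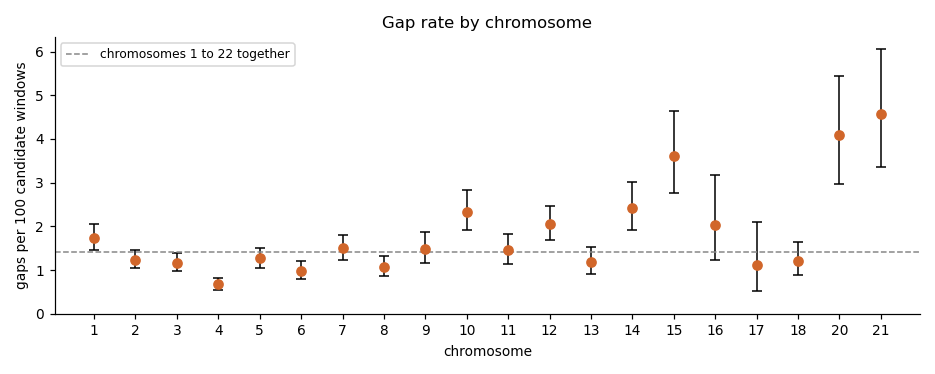
Gaps per 100 candidate windows on each chromosome that has candidate windows, with exact binomial 95% intervals; the dashed line is the rate over chromosomes 1 to 22, 1.42. Chromosomes 20 and 21 lie above 4 and chromosome 4 lies at 0.671.

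Gaps overlapped protein-coding genes more often than the comparison windows did. Of 1610 gaps, 802 overlapped a protein-coding gene (49.8%, 47.3% to 52.3%), against 34.6% (34.3% to 34.8%) of comparison windows and 46.4% of all windows. The share was 56.1% (52.6% to 59.6%) for single-window primed gaps outside naive LADs and 45.5% (43.4% to 47.6%) for single-window naive gaps in primed LADs. Candidate windows over a protein-coding gene had 2.03 gaps per 100 and those without had 1.09, a ratio of 1.86. Long non-coding RNA genes were overlapped by 23.2% of gaps and 23.2% of comparison windows. No annotated gene of any kind lay in 474 gaps (29.4%).

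The higher gene overlap reached well beyond the gap window. The windows directly beside the gaps overlapped a protein-coding gene in 49.9% of cases, those 2 to 5 windows away in 49.5% and those 11 to 30 windows away in 51.02%. The difference from comparison windows was largest in naive LADs of 100 windows or more, but did not rise steadily with length. In those of 100 windows or more, 56.4% of gaps (50.95% to 61.7%) and 34.8% of comparison windows overlapped a protein-coding gene. At 50 to 99 windows the shares were 37.9% and 29.1%, and at 10 to 49 windows 50.3% and 36.7%. In naive LADs of 5 to 9 windows the shares were 46.4% (38.3% to 54.6%) and 47.2%. At 2 to 4 windows they were 55.8% (47.6% to 63.8%) and 47.8%, and in single-window ones 56.6% (42.3% to 70.2%) and 58.4%.

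Few gaps held a gene start. Start sites came from the RefSeq promoter table, which gave them for 15100 of the 18408 protein-coding genes of the autosomes other than chromosome 8. A start is that of the gene's representative transcript and can lie inside the annotated gene, as at MAPK10, FRMD4B, CALD1 and several others that start in a gap. Starts on chromosome 8 were not used here, which leaves 1526 gaps. A protein-coding start lay in 47 of these (3.08%, 2.27% to 4.07%), against 1.78% (1.70% to 1.87%) of comparison windows and 4.97% of all windows. Single-window primed gaps outside naive LADs held one more often, in 7.63% (5.81% to 9.79%). The median distance from a gap to the nearest window with a protein-coding start was 130 kb (quartiles 50 and 290 kb), against 250 kb (90 to 560 kb) for comparison windows. The windows around the gaps held starts about as often, 3.77% of those directly beside, 3.17% at 2 to 5 windows and 3.69% at 11 to 30, so the gap window was not above its surroundings. Ends of protein-coding genes lay in 3.60% of gaps and 1.90% of comparison windows, and starts of non-coding genes or pseudogenes in 4.46% and 2.70%.

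Starts were also counted by the length of primed LAD beside the gap, and the difference between the classes was not tested. At gaps with 50 kb or more of primed LAD on each side, a start lay in 4.36% of the gap windows (17 of 390, 2.56% to 6.89%) and 4.74% of the windows directly beside them. From 2 to 5 windows away it was 2.21%, and from 6 to 10 windows 2.28%. Comparison windows with the same 50 kb of primed LAD on each side held a start in 1.71%. Where the shorter side was a single window, the share was 1.97% (1.05% to 3.35%) in the gap, 3.64% beside it and 3.32% at 2 to 5 windows. At gaps of this second kind the share was lower in the gap window than in its surroundings. Its interval includes the 3.32% at 2 to 5 windows but not the 3.64% beside it.

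**Figure D5:**
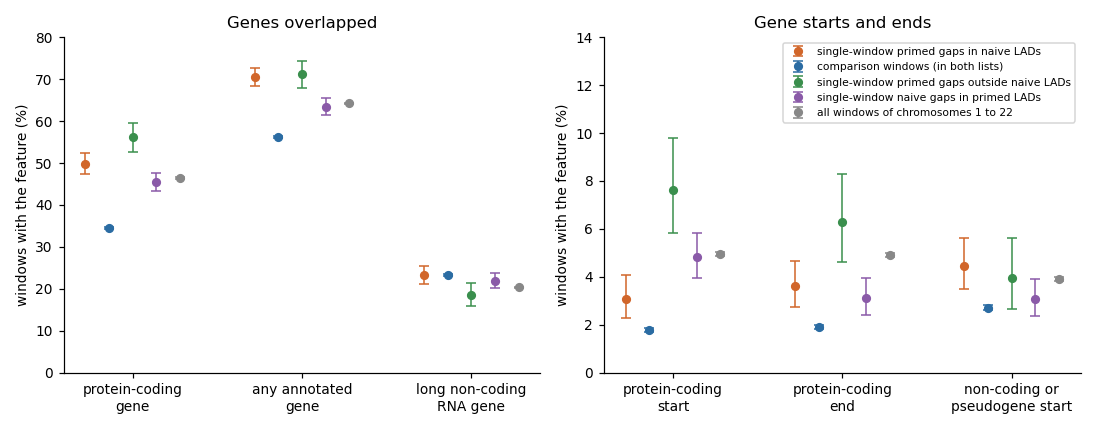
Share of windows (%) that overlap genes (left) or hold a gene start or end (right) for the gaps, the comparison windows, single-window primed gaps outside naive LADs, single-window naive gaps in primed LADs and all windows, with exact binomial 95% intervals. Gaps lie at 49.8% for protein-coding overlap and comparison windows at 34.6%, and for protein-coding starts at 3.08% and 1.78%.

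The 47 gaps held the starts of 50 protein-coding genes, or 0.331% of the 15100 genes of known start. Of the 50 genes, 30 were wholly in naive LADs, 17 were at least 90% in primed LADs and 8 were at 0% in primed LADs. The same shares were not counted over all genes, so these counts only describe the 50. In the 17 genes, the primed list covered nearly all of the body, and its break at the start follows from choosing genes that start in a gap. For HECTD2, 1 of the 17, the annotated 5′ end lies in the primed window before the gap. LRIG3, which encodes a membrane protein that modulates growth factor receptors (chromosome 12, 58872155 to 58920504), lay 100% within naive and 98.96% within primed LADs. Its start lies in a gap (58920001 to 58930000) between primed LADs of 950 and 2370 kb, 360 kb from the edge of its naive LAD. PLK2, a polo-like kinase gene (chromosome 5, 58453982 to 58460086), was at 100% and 98.6%, with primed LADs of 420 and 540 kb on its sides. A gap on chromosome 11 (82900001 to 82910000) between primed LADs of 3380 and 240 kb held 3 starts. It held those of PRCP, which encodes a lysosomal peptidase (100% in naive and 97.9% in primed), of DDIAS, a gene that suppresses apoptosis after DNA damage (100% and 74.9%), and of LOC124902602 (100% and 0%).

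The other starts among the 15 gaps with the longest shorter side belonged to genes of varied function. FZD1, a Frizzled receptor for WNT ligands (chromosome 7, 91264433 to 91271326), lay 100% within naive and 19.2% within primed LADs, 630 kb from the edge of a naive LAD of 1480 kb. TBX20, a T-box factor of heart development (chromosome 7), was at 100% and 92.1%, and TFAP2D, an AP-2 transcription factor gene (chromosome 6), at 100% and 89.1%. COL25A1, which encodes a transmembrane collagen (chromosome 4), was at 98.0% and 99.5%. AMPH, the amphiphysin gene of synaptic vesicle endocytosis (chromosome 7), was at 100% and 99.4%. GTF3C3, which encodes a subunit of RNA polymerase III factor TFIIIC (chromosome 2), was at 100% and 73.6%, with primed LADs of 5400 and 70 kb on its sides. HACD4, of fatty acid elongation (chromosome 9), was at 100% and 94.9%, and XPNPEP1, an aminopeptidase gene (chromosome 10), at 83.0% and 94.0%. DPH6, of diphthamide synthesis (chromosome 15), was at 67.6% and 86.0%, CCDC175 (chromosome 14) at 86.1% and 90.5% and LOC124903248 (chromosome 13) at 100% and 44.7%. KLRC4, a gene of natural killer cell receptors (chromosome 12), was at 100% and 0%. KLRC4 has close paralogs beside it, and the treatment of reads shared between copies is not stated in the labels, which leaves its call uncertain.

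Protein-coding genes that fit wholly into a gap numbered 11, and each of them is wholly naive and wholly outside the primed list by this choice. Among them were C1orf115, CALCB, RANBP6, TIGD2, GADD45A, KLRC4 and LOC124902602, and the 3 olfactory receptor genes OR8U3, OR6C65 and OR5M11. For 3 of the 11, CALCB and GADD45A among them, the table gives no start site, although their starts must lie in the gap too. CALCB, which encodes a calcitonin gene-related peptide (chromosome 11, 15073593 to 15078637), sits between primed LADs of 170 and 140 kb. GADD45A, a stress-response gene (chromosome 1, 67685201 to 67688334), sits in a naive LAD of 2690 kb, with 10 kb of primed LAD on its shorter side. RANBP6, of the importin family (chromosome 9, 6011025 to 6015624), and TIGD2, derived from a transposase (chromosome 4, 89111169 to 89114901), also had 10 kb on that side.

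The promoters of genes that start in gaps were described by their CpG, GATC and TATAAA letters. The median number of CpG in the 300 bases was 23 (quartiles 9 and 35.5) for the 50 gap genes, 12 (2 to 25) for 1964 genes starting in comparison windows and 22 (8 to 32) for all 15100. At least 10 CpG were found in 35 of the 50 (70%, 55.4% to 82.1%), against 53.4% (51.2% to 55.6%) and 73.0%. The interval of the 50 genes overlaps that of genes starting in comparison windows at its lower end. The median G+C content was 61.3%, 53.3% and 63.0%. At least 1 GATC was present in 17 of the 50 (34.0%, 21.2% to 48.8%), 43.0% (40.8% to 45.2%) and 39.5%. The letters TATAAA, searched on both strands, were in 5 of the 50 (10%), 17.1% and 9.71%. These are letters in windows of 300 bases and not in the whole 10 kb gap, whose sequence was not used here.

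Most gene overlap came from long genes that gaps cross. Gaps crossed 499 of 19122 protein-coding genes (2.61%), and 455 of the 3582 genes that lie at least 50% in naive LADs (12.7%). The crossed genes had a median length of 153 kb (quartiles 63.2 and 356 kb), against 55.1 kb for genes at least 50% in naive LADs and 24.5 kb for all. A longer gene has more windows that could be a gap, and among genes at least 50% in naive LADs 26.2% of those of 200 kb or more were crossed, against 3.42% of those under 10 kb. Of the crossed genes, 351 had 1 gap, 69 had 2 and 36 had 3. Both lists held at least 50% of the body of 341 crossed genes (68.3%), and 114 (22.8%) were in the naive list alone by this measure. Each crossed gene has a naive-only window by the rule. These 2 shares were not counted over all genes, so they only describe the crossed ones. In genes of 50 kb or longer, the gaps lay at a median of 49.2% of the gene's length from its 5′ end (quartiles 26.0% and 73.0%), close to the 50.2% (26.7% to 73.6%) of comparison windows. 

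Of the genes with most gaps, 8 are described, all over 800 kb long. Of 9 genes with 6 gaps each, the longer 2 were taken. TENM2 (chromosome 5, 166979029 to 168264157) had 11 gaps in 78 candidate windows, with 98.1% of the gene inside naive and 66.2% inside primed LADs. All 11 lay between 616 and 996 kb from its 5′ end. TENM3, its paralog (chromosome 4, 181447613 to 182803024), had 7 in 19, at 74.0% and 23.05%. SLC24A2 (chromosome 9, 19507455 to 20307892) had 10 in 35, at 100% and 64.96%. NPAS3, a neuronal transcription factor gene (chromosome 14, 32934785 to 33804173), had 9 in 27, at 90.8% and 48.9%. In TENM2, SLC24A2 and NPAS3 the naive list covered at least 90.8% of the gene and the primed list far less. AGBL4, a tubulin deglutamylase gene (chromosome 1), had 9 in 65, at 66.2% and 81.5%, so here the naive list covered less. FHIT, which spans a common fragile site (chromosome 3), had 7 in 35, at 82.4% and 42.7%. MACROD2, an ADP-ribosyl hydrolase gene (chromosome 20), had 6 in 191, at 100% and 95.6%, and PRKG1, a cGMP-dependent kinase gene (chromosome 10), 6 in 111, at 93.9% and 91.6%. In MACROD2 and PRKG1 both lists covered at least 91.6% of the gene.

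Lists of genes of pluripotency and early development were crossed at shares from 0% to 9.09%, beside 2.61% of all protein-coding genes. Of genes on autosomes, gaps crossed none of the 16 core pluripotency genes, 25 naive pluripotency genes and 30 genes of the 8-cell embryo. Nor did they cross any of the 24 mesendoderm regulators, 28 trophoblast genes and 24 germline genes. Few of these genes were at least 50% in naive LADs at all, 1, 4, 3, 2, 6 and 3 of them, so counts of 0 say little about these lists. Of 22 primed pluripotency genes, 2 of the 6 in naive LADs were crossed. Of all protein-coding genes in naive LADs, 12.7% were crossed. FAT3, which encodes an atypical cadherin (chromosome 11), had 5 gaps with 100% of the gene inside naive and 70.7% inside primed LADs, and STC1, the stanniocalcin gene (chromosome 8), had 1, at 100% and 37.3%. FAT3 is 672 kb long, and 26.2% of naive LAD genes of 200 kb or more were crossed. Among 22 neuroectoderm regulators, MEIS2, a homeobox gene (chromosome 15), was crossed by 3 gaps, at 75.4% and 56.6%. Both subunits of Polycomb complexes PRC1 and PRC2 that lay in naive LADs, of 28 in all, were crossed. Such small counts were not tested against the 12.7% of all genes in naive LADs. RNF2 was at 100% and 95.4%, and PCGF5 (chromosome 10), a subunit of variant PRC1, at 100% and 92.2%.

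Lists of genes of basic cell functions were crossed at shares from 0% to 7.14%, beside 2.61% of all protein-coding genes, and the lists are too short to set apart from it. No gap crossed any of 77 cytosolic and 77 mitochondrial ribosomal protein genes, 80 histone genes, 35 aminoacyl-tRNA synthetase genes, 37 spliceosome genes, 38 respiratory chain genes, 24 nucleolar factor genes or 40 HOX genes. Of these lists, the respiratory chain genes had the most members in naive LADs, 10. Of 42 replication and repair genes 3 were crossed: ORC4 and RFC3, of the origin recognition complex and the clamp loader, and ATM, the DNA damage kinase gene. ATM was covered at only 6.23% in naive and 27.4% in primed LADs, and its gap is a naive LAD of 10 kb. CUL3, a ubiquitin ligase scaffold gene (86.7% and 69.3%), TPR (100% and 84.3%) and the proteasome gene PSMD14 (79.0% and 79.0%, with 2 gaps) were the only members crossed in their lists of 24, 23 and 49 genes. None of the genes in these lists started in a gap, and starts were known for most but not all of them.

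Among gene families, the crossed share lay between 0% and 11.9%, beside 2.61% of all protein-coding genes. Of 42 collagen genes 5 were crossed (11.9%, 3.98% to 25.6%), all of them among the 19 in naive LADs. They were COL6A5, COL6A6, COL25A1, COL21A1 and COL28A1, and COL25A1 alone started in a gap. These 5 genes are 139 to 494 kb long. Of all genes in naive LADs, 15.6% of those of 50 to under 200 kb and 26.2% of longer ones were crossed. Of 384 solute carriers 11 were crossed (2.86%), and SLC24A2, SLC25A21 and SLC6A5, a glycine transporter gene, started in a gap. As at several other genes, the SLC24A2 start is that of the representative transcript and lies inside the annotated gene. Of 391 olfactory receptor genes 7 were crossed (1.79%), 5 of them among the 186 in naive LADs, where 3.42% of all genes under 10 kb were crossed, and OR8U3, OR5M11, OR9Q1 and OR6C65 started in a gap. These 4 gaps lie in naive LADs of only 10 or 20 kb, which leaves their calls uncertain. Some olfactory receptors have near-identical copies, and whether this affected the 4 windows was not tested. Of 505 ZNF genes 4 were crossed (0.792%), with 24 in naive LADs, and ZNF280D started in a gap. Potassium channels (2 of 94), cadherins and protocadherins (3 of 86), cytochromes P450 (1 of 56) and GABA-A and glutamate receptors (1 of 38) were also crossed, and serpins (0 of 33) were not. Of these, 13 serpins and 21 receptors lay in naive LADs, where 12.7% of all protein-coding genes were crossed, and such counts are too small to set apart from that share.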

How the data were processed

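Per the labels, 12 pA-DamID libraries of H9 cells were made. Named in the submitters' processing notes are the aligner BWA, SAMtools 1.10, the domain caller SICER and the build hg38. For their order, the thresholds and the merging of libraries, the sources used here give no detail. The labels call the lists final and the deposited files are simple lists; how these differ is not given either. Each deposited file holds the starts and ends of LADs. All of these lay on a 10 kb grid and neighbouring intervals never touched, so each list was read as runs of 10 kb windows up to the last annotated gene or LAD of a chromosome. Gene positions and promoters came from RefSeq (GRCh38.p14, whose primary assembly is that of hg38). Coordinates are 1-based.

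Gaps, candidate windows and comparison windows were found as described in the report. A gene is crossed if any base of it lies in a gap, and in a LAD if at least 50% of its body does. Genes were named by rules: starts in the 15 gaps with the longest shorter side, the 8 genes with most gaps, the 8 longest genes wholly in a gap, genes crossed in the 3 naive LADs with most gaps, and list or family members that start in a gap. A gene that these rules name is not reported here. Other crossed list members, the deepest gaps, the largest group of gaps and the examples of starts inside an annotated gene were named after their values were seen. The members and the 15 gene lists and 15 families were chosen with earlier results of these data known. With 1 list per state no test was made. Shares have exact binomial (Clopper-Pearson) 95% intervals. Alternatives changed the gap width, the flanks, the naive list, the chromosomes and the gene set. The functions were tested on simulated lists. Windows were handled with pandas 2.3.3 and numpy 2.4.6, intervals came from SciPy 1.17.1 and plots from matplotlib 3.10.9 (Python 3.11.15).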

Additional observations from a re-analysis of the deposited data

How the results depend on the processing

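No paired analysis was possible because each state has a single list without replicates. Leaving out each of the 20 chromosomes with gaps in turn gave 1466 to 1601 gaps, 49.2% to 50.6% over a protein-coding gene, 2.69% to 3.33% with a protein-coding start, 18.8% to 19.8% in the edge window, a median of 50 kb to the naive edge and of 70 kb to the nearest other gap. The requirement of 50 kb of primed LAD on each side changed the values of all 6 results. It left 412 gaps, of which 47.1% (42.2% to 52.0%) lay over a gene and 4.36% (2.56% to 6.89%) held a start. These 2 intervals include the values as reported, 49.8% and 3.08%. In the edge window were 12.9%, and the medians were 100 kb to the naive edge and 675 kb to the next gap. With naive LADs less than 50 kb apart joined, 2097 gaps were counted, 4.55% held a start, 1.62% were in the edge window and the median to the edge was 370 kb, so the edge values hold for the naive list as deposited. Without naive LADs under 50 kb these edge values were 10.05% and 60 kb. With both neighbours required to be naive they were 0%, by construction, and 70 kb. Gaps of 1 or 2 windows had a median of 50 kb to the next. Over all annotated genes, 70.6% of gaps overlapped a gene and 6.82% held a start, and windows widened by 10 kb on each side held a protein-coding start in 10.1%. Chosen after seeing the data, counting the windows of chromosome 8 as holding no start gave 2.92%. The excess of gene overlap over comparison windows remained with 50 kb flanks (47.1% against 33.5%) and with both neighbours naive (49.2% against 34.1%). Depth, mappability and the number of GATC sites per window are unknown, and their part in the gaps was not tested.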

Other observations

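On chromosome X, outside the rule, 91 of 6452 candidate windows were single-window primed gaps inside naive LADs (1.41%, 1.14% to 1.73%). Of these 91 gaps, 38 overlapped a protein-coding gene (41.8%, 31.5% to 52.6%) and 4 held a protein-coding start. Shares over other windows or all genes of chromosome X were not counted, so these values and the genes below are description only. PCDH11X, a protocadherin gene (91779375 to 92623230), had 5 gaps with its start in one of them, and COL4A6, a basement membrane collagen gene, had 3. The genes OTC (ornithine transcarbamylase, of the urea cycle), STS (steroid sulfatase), AMMECR1 and TMEM164 had 2 each. FANCB, HCCS, MOSPD2 and TEX13B also started in a gap.

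Genes of small RNAs lay in 0.186% of gaps (0.0384% to 0.544%) and in 0.388% of comparison windows, which is inside that interval. For single-window naive gaps in primed LADs the share was 0.505%, also inside it. It was 1.64% for single-window primed gaps outside naive LADs and 1.05% for all windows, both above the interval of the gaps. A single microRNA gene of 1793, MIR4778 (chromosome 2, 66358249 to 66358328), and 2 of 1150 small nucleolar RNA genes, LOC124900520 and LOC124900556, lay in a gap, and none of 439 transfer RNA genes did (upper limit 0.837%).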
